A study of Homo sapiens with 6 samples.

Results

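Signal of 5 structural RNAs made by RNA polymerase III was examined on the arrays of a cap immunoprecipitation: RN7SL1, RN7SK, RMRP, RPPH1 and RNU6ATAC. They were taken by gene name on the array, by a rule that uses no measured value, though earlier results of these data were known when the 5 names were chosen. The array held 36328 gene names for cell RNA; the 5 names were carried by 6 of its 50599 probes, and every probe was followed on all 6 arrays. RNA was isolated from MOLT-4, an established line from T-cell acute lymphoblastic leukaemia, carrying either an empty vector (the mock group, 3 arrays) or a NUDT16 vector (the NUDT16 group, 3 arrays). NUDT16 encodes an enzyme that removes caps from RNA. From each RNA preparation, 20 μg went into an immunoprecipitation directed at 7-methylguanosine (m7G) and trimethylguanosine (m3G) caps, and the eluate was labelled with Cy3 and read on a 1-colour array. The promoter of the vector and the share of cells transfected are not given in the sources used here. Nothing in the labels says that the replicates were separate cultures, so p-values measure only the spread between these arrays. RNA taken before the precipitation was not analysed here, so enrichment or depletion of an RNA by the precipitation was not measured.

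RNA polymerase II transcripts receive an m7G cap, and several small nuclear RNAs have it converted to m3G. RNA polymerase III transcripts are not capped in this way: they keep a triphosphate at the 5′ end or, as in 7SK and the U6-type RNAs, carry a methyl group on its outermost phosphate. RN7SL1 encodes 7SL, the scaffold of the signal recognition particle, which guides secretory proteins to the endoplasmic reticulum. RN7SK encodes 7SK, which holds the elongation kinase P-TEFb in an inactive particle. RMRP and RPPH1 encode the catalytic RNAs of RNase MRP, which cuts precursor ribosomal RNA, and of RNase P, which trims the 5′ end of transfer RNAs. RNU6ATAC encodes U6atac, the catalytic small nuclear RNA of the minor spliceosome, which pairs with U4atac before the spliceosome is activated.

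The oligonucleotides below defined what was measured, and are shown because 1 of them lies outside the RNA it is named for. They are the array files' own 60-base probes, in the sense orientation of the RNA except where stated, with positions on hg19. Capitals mark a run of 4 or more T, and in the upstream RPPH1 probe the octamer ATGCAAAT.
RN7SK, probe A_33_P3382595, chr6:52860659-52860718, plus strand: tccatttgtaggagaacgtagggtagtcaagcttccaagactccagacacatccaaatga
RMRP, probe A_33_P3401284, chr9:35657939-35657998, minus strand: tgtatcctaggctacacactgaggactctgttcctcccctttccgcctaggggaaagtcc
RPPH1, probe A_33_P3389394, chr14:20811238-20811297, minus strand: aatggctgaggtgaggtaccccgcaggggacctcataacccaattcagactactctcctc
RPPH1 (upstream), probe A_33_P3420327, chr14:20811622-20811681, plus strand: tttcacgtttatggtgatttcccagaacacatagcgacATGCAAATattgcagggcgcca
RNU6ATAC, probe A_21_P0000504, chr9:137029562-137029621, minus strand: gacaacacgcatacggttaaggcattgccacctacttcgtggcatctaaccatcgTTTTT
RNU4ATAC, the m3G-capped partner, probe A_21_P0000503, chr2:122288526-122288585, plus strand: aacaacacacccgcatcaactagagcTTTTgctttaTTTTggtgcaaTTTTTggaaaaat

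The RNU6ATAC probe ends in a run of T from base 56, at the 3′ end of the RNA, where RNA polymerase III stops at such runs. TTTT in the printed orientation stood in 31.4% of all 50599 probes, so its presence is no mark of a polymerase III product. The array files list the RN7SL1 probe for RN7SL2 as well, and signal of these near-identical 7SL genes cannot be told apart. None of the 6 probes shared 20 bases in a row, on either strand, with another probe for cell RNA. The probes shown within the polymerase III RNAs began at base 241 of 7SK (332 bases in RefSeq), 17 of RMRP (270 bases), 273 of RPPH1 (341 bases) and 65 of U6atac (126 bases), as the array files count. The RMRP probe therefore lay near the 5′ end and the other 3 in the second part of their RNAs. GC content was 55.0% for the RMRP and RPPH1 probes, 45.0% for RN7SK and 46.7% for RNU6ATAC, against a median of 43.3% over all probes.

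The upstream RPPH1 probe did not lie in the RNA. It was listed on the strand opposite to RPPH1, 324 bases from the other RPPH1 probe on hg19. In the RefSeq window before the start of PARP2, the divergent neighbour that encodes a DNA repair enzyme, its sequence stood on the PARP2 strand, 172 bases before the PARP2 start (GRCh38.p14). On that build 51 bases separated it from the annotated RPPH1 gene. The 250 bases before the PARP2 start are shown here because they hold this probe between the divergent starts, with ATGCAAAT and TATAA in capitals. Both are known elements of the promoters that polymerase III uses for RPPH1, RMRP, RN7SK and RNU6ATAC.
PARP2 upstream window, chr14:20343385-20343634, plus strand, GRCh38.p14: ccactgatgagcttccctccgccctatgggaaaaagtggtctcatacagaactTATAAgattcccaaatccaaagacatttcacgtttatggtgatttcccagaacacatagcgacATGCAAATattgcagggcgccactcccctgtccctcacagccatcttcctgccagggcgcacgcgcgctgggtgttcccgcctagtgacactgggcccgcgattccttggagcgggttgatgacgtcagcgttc
The octamer occurred 1 time on this strand and 0 times on the other, and TATAA 1 time on each strand, the copies overlapping. Searched on both strands, the octamer stood in 1.63%, TATAA in 18.9% and both in 0.490% of 35116 RefSeq upstream windows of 250 bases. A match describes letters only and is no sign of binding.

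Facts of the whole series that touch these RNAs are as follows. Between 39.3% and 52.0% of 58717 spots for cell RNA were well above background on 5 arrays, and 14.6% on NUDT16 replicate 2. Saturated spots numbered 0. Each slide held the mock and the NUDT16 array of one replicate number. Both NUDT16 probes stayed at background level on all 6 arrays. A probe for the pseudogene NUDT16P1 was well above background on 3 of 3 NUDT16 and 0 of 3 mock arrays, and a second NUDT16P1 probe on 0 of 6. Of 15 T-lineage markers, 12 were well above background on every mock array, among them CD3D, CD3E, PTCRA and DNTT. Of 12 markers of other lineages, 7 were not detected on any array, among them MS4A1, MPO and EPCAM. CD79A and KRT18 were among those detected on all 3 mock arrays.

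All 5 RNAs were detected in the cap immunoprecipitate of mock cells, on 3 of 3 arrays each. RN7SL1, RN7SK, RMRP and RPPH1 were detected on all 6 arrays, and RNU6ATAC on 5, the exception being NUDT16 replicate 2. For comparison, 13% of all probes with a usable spot on every array were well above background on all 6 arrays, and 44.5% on none. Of the 6 probes, 5 passed the filter for testing (well above background on all 3 arrays of a group), and the upstream RPPH1 probe did not. Brightness of different probes depends on the probe, so the RNAs are not ranked against each other.

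**Figure D1:**
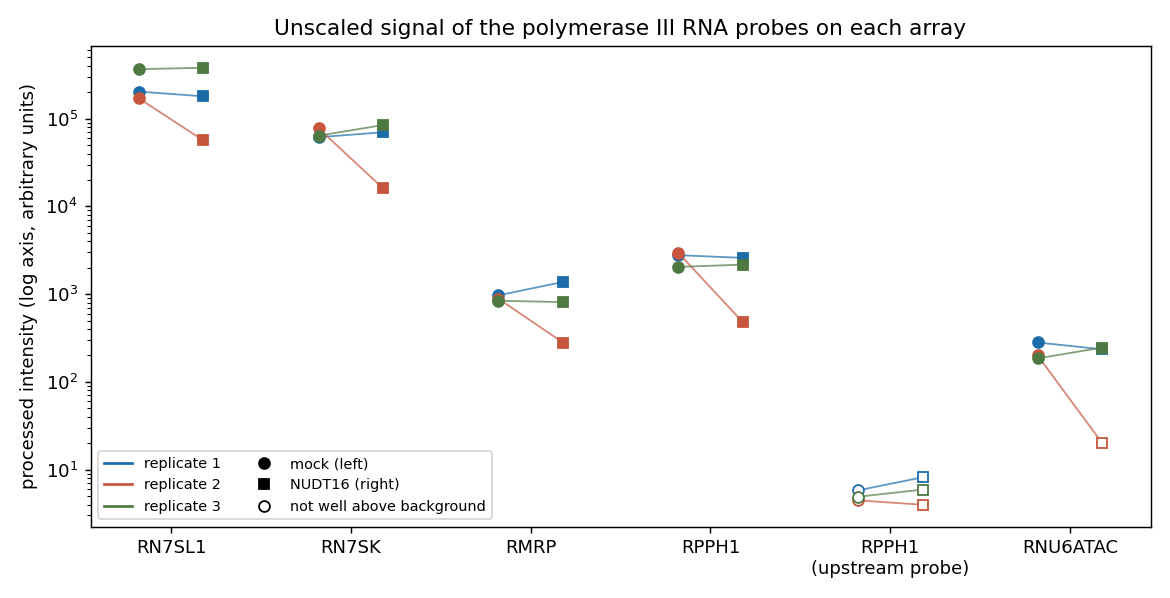
Processed intensity of each probe (vertical log axis, arbitrary units) on the 6 arrays, unscaled. Circles are mock and squares NUDT16 arrays, lines join arrays of the same replicate number, and open symbols were not well above background. The pairs of replicates 1 and 3 run nearly level, the NUDT16 array of replicate 2 lies below all others for the 5 probes within the RNAs, and the upstream RPPH1 probe stays between 3.98 and 8.17.

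RN7SL1, the signal recognition particle RNA, gave unscaled intensities of 203529, 170622 and 366575 on mock replicates 1, 2 and 3. On the NUDT16 arrays it gave 179597, 56389 and 380053 in the same order. The groups overlapped: both arrays of replicate 3 were the highest and NUDT16 replicate 2 was the lowest. RN7SL1 on NUDT16 arrays was thus at 88.2%, 33.0% and 104% of its mock partner.

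RN7SK, the P-TEFb-binding RNA, gave intensities of 61439, 77583 and 63995 on the mock arrays. The NUDT16 arrays gave 69996, 16007 and 84603. The mock arrays lay close together, and NUDT16 arrays 1 and 3 were each above their partner, at 114% and 132%. NUDT16 replicate 2 was at 20.6% of its partner.

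RMRP, the RNase MRP RNA, gave intensities of 968, 888 and 841 on mock and 1378, 280.3 and 812 on NUDT16 arrays. NUDT16 replicate 1 was the highest array and NUDT16 replicate 2 the lowest, so that the NUDT16 values enclosed the mock values. The partners' ratios were 142%, 31.6% and 96.5%.

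RPPH1, the RNase P RNA, was measured by its probe within the RNA at 2782, 2980.4 and 2043 on mock arrays and at 2589, 479 and 2169 on NUDT16 arrays. Only NUDT16 replicate 2 fell outside the range of the mock arrays, at 16.1% of its partner, while replicates 1 and 3 were at 93.1% and 106%. The upstream probe read between 4.47 and 5.80 on mock and between 3.98 and 8.17 on NUDT16 arrays, well above background on 0 of 6. PARP2 was well above background on 5 of 6 arrays. RNAs of the genes on both sides were thus detected, while the upstream probe, listed on the PARP2 strand, was not. Other RNA from the stretch between the genes was not measured.

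RNU6ATAC, the U6atac RNA, gave 281, 200.02 and 185 on mock arrays. It gave 235, 20.0 and 246 on NUDT16 arrays, the second of which was not well above background (the lowest signal called so on that array was 19.5). In replicates 1 and 3 it stood at 83.6% and 133% of its partner, and in replicate 2 at 9.99%, from the value not well above background.

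Across the 5 RNAs, the unscaled ratio of NUDT16 to mock ran from 83.6% to 142% in replicate 1, from 9.99% to 33.0% in replicate 2 and from 96.5% to 133% in replicate 3. These ranges have to be read against the arrays. The median ratio of the 6582 probes detected on all arrays was 96.1%, 10.5% and 151% in the same pairs. In replicate 2, 96.1% of those probes had less than 50% of their mock intensity, as had all 5 RNAs. In replicates 1 and 3, 0 of the 5 were below 50%, beside 3.27% and 0.0304% of those probes. In replicate 2 RN7SL1, RMRP and RN7SK had higher ratios than 90.1%, 89.1% and 78.7% of these probes, RPPH1 more than 69.6% and RNU6ATAC more than 47.8%. In replicate 3 they stood low. RMRP, RN7SL1 and RPPH1 had ratios above only 4.10%, 7.70% and 9.63% of probes, and RN7SK and RNU6ATAC above 32.3% and 32.9%. In replicate 1 RMRP stood above 92.1% of probes and the other 4 between 35.3% and 68.8%. RN7SL1, RN7SK, RMRP and RPPH1 thus changed between the upper and the lower part of the probes from pair to pair. RNU6ATAC stood somewhat below the middle in all 3 pairs, above 35.3%, 47.8% and 32.9% of probes. The second place comes from a value not well above background. RNU6ATAC was itself not among the 6582 probes, which had to be detected on NUDT16 replicate 2.

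**Figure D2:**
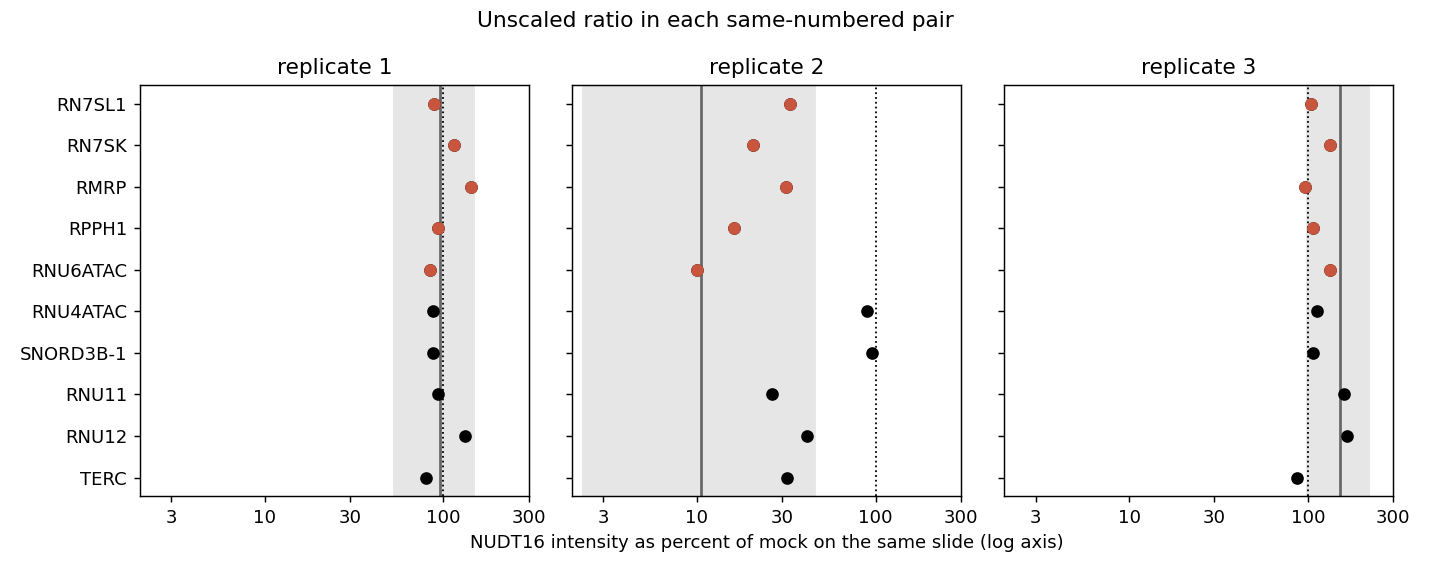
NUDT16 intensity as percent of mock (horizontal log axis) in each same-numbered pair, unscaled, for the 5 polymerase III RNAs (red) and 5 m3G-capped RNAs (black). The line is the median and the grey band the 5th to 95th percentile of 6582 probes detected on all arrays, and the dotted line is equality. In replicate 2 the red points lie between 9.99% and 33.0%, and RNU4ATAC and SNORD3B-1 lie at 89.2% and 95.8%.

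To compare the groups, log2 intensity was expressed relative to the 75th percentile, on the same array, of the probes detected on all 6 arrays, and fitted with limma over 17765 probes. None of the 5 RNAs passed the 0.05 threshold after Benjamini-Hochberg adjustment. Of all tested probes 1 did (0.00563%), that for NUDT16P1, and 8 had an unadjusted p under 0.05 (0.045%), none of them a probe of the 5 RNAs. The groups overlapped for all 5, and were without overlap for 0.591% of all tested probes. Since each array holds RNA of a whole culture, fewer cells with an RNA and less of it per cell cannot be told apart.

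RMRP was at -2.35 ± 0.68 (SD, n = 3) on mock arrays and -1.75 ± 1.83 (SD, n = 3) on NUDT16 arrays, in scaled log2 units. The limma difference was 0.59, with a 95% interval from -1.28 to 2.47 (SE 0.86, adjusted p 0.999). RN7SK was at 3.88 ± 0.91 (SD, n = 3) and 4.32 ± 1.61 (SD, n = 3), a difference of 0.43 with an interval from -1.38 to 2.25. RN7SL1 was at 5.68 ± 0.80 (SD, n = 3) and 6.10 ± 1.74 (SD, n = 3), a difference of 0.42 with an interval from -1.43 to 2.28. RPPH1 was at -0.83 ± 0.85 (SD, n = 3) and -0.72 ± 1.58 (SD, n = 3), a difference of 0.11 with an interval from -1.67 to 1.90. RNU6ATAC was at -4.39 ± 0.55 (SD, n = 3) and -4.45 ± 0.84 (SD, n = 3), a difference of -0.06 with an interval from -1.48 to 1.36. This difference includes the value of NUDT16 replicate 2, which was not well above background. The limma adjusted p was 0.999 for each of the 5. Every interval of this unblocked fit reached beyond a 2-fold difference in both directions. The median over the 5 was 0.42, beside -0.06 over all 13696 tested genes and 0.18 over the 5654 genes detected on all 6 arrays.

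The sign of these differences depended on single arrays. Over all 6 arrays 1 of the 5 had a difference below 0, as had 56.8% of all tested probes, with or without the replicate block. By same-numbered pair the scaled log2 difference of RN7SL1 was -0.23, 1.998 and -0.51, that of RN7SK 0.14, 1.32 and -0.16, and that of RMRP 0.46, 1.93 and -0.61. RPPH1 had -0.15, 0.96 and -0.47, and RNU6ATAC -0.31, 0.27 and -0.15. All 5 were thus higher than their partner in replicate 2, RNU6ATAC by a value not well above background. There the NUDT16 array was scaled by a 75th percentile of 224, against 2701 on its mock partner and 4720 to 7717 on the other arrays. All 5 were lower in replicate 3, and 3 of 5 in replicate 1. Without NUDT16 replicate 2 the differences were between -0.80 (RPPH1) and -0.44 (RMRP), all below 0, beside a median of -0.16 over all tested probes. With replicates 1 and 3 alone, paired, they were between -0.37 (RN7SL1) and -0.01 (RN7SK), beside a median of -0.22. RN7SK and RMRP lay above that median by 0.22 and 0.15, and RN7SL1, RPPH1 and RNU6ATAC below it. Leaving out other arrays turned 3 of the 5 as well. RPPH1 was at -0.19 without mock replicate 1 and -0.08 without mock replicate 3, and RN7SL1 at -0.03 without mock replicate 1. RNU6ATAC was at 0.26 without mock replicate 2, 0.23 without NUDT16 replicate 1 and 0.13 without NUDT16 replicate 3. Without scaling, all 5 were below 0 over the 6 arrays, from -1.06 (RNU6ATAC) to -0.40 (RMRP), beside a median of -1.10 over all tested probes. What sets NUDT16 replicate 2 apart was not tested.

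Same-numbered arrays deviated together, and a fit with the replicate number as a block narrowed the intervals. The blocked 95% interval was -0.81 to 0.69 for RNU6ATAC, -0.80 to 1.02 for RPPH1, -0.49 to 1.36 for RN7SK, -0.60 to 1.79 for RMRP and -0.83 to 1.67 for RN7SL1. None of the 5 passed the threshold in this fit (limma adjusted p 0.579 to 0.934) or had an unadjusted p under 0.05, which 9.76% of all tested probes had. For RNU6ATAC a 2-fold difference in either direction lay outside the blocked interval, which rests on 1 value not well above background.

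**Figure D3:**
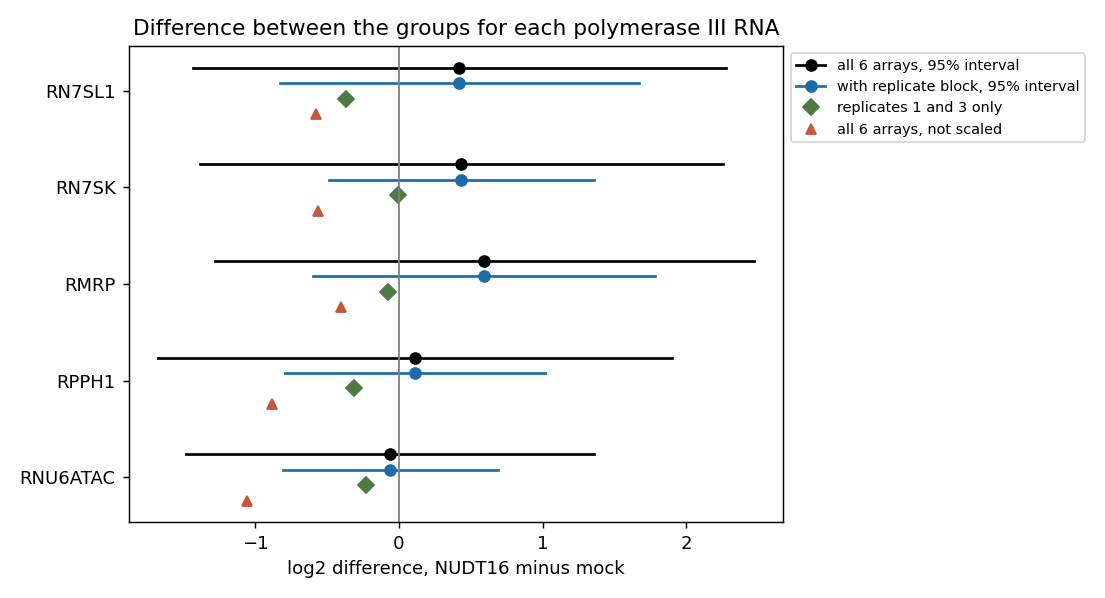
Log2 difference, NUDT16 minus mock, for each RNA. Black points and lines are the estimate over 6 arrays with its 95% interval, blue the same with the replicate block, green diamonds replicates 1 and 3 alone, and red triangles the unscaled values of all 6 arrays. Every interval spans 0, the red triangles all lie below 0, and the green diamonds lie between -0.37 and -0.01. The medians over all tested probes were -1.10 for the unscaled values and -0.22 for replicates 1 and 3 alone.

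The m3G-capped RNAs were the natural counterpart, since the precipitation was directed at their cap. Of 19 names listed for this class, 5 were on the array: RNU4ATAC (U4atac), SNORD3B-1 (the U3 RNA of ribosome synthesis), RNU11 and RNU12 (minor spliceosome) and TERC (the telomerase RNA). All were detected on 6 arrays. Their scaled log2 differences between the groups were 0.93, 0.94, 0.54, 0.95 and 0.27, and 0 of 5 passed the limma threshold. In the unscaled pair of replicate 2, RNU4ATAC read 258056 on the mock and 230182 on the NUDT16 array, or 89.2%, and SNORD3B-1 154789 and 148305, or 95.8%. RNU12 was at 41.5%, TERC at 32.0% and RNU11 at 26.2% of their partner there. The range of the m3G-capped RNAs, 26.2% to 95.8%, thus overlapped that of the polymerase III RNAs, 9.99% to 33.0%. SNORD3B-1 and RNU4ATAC each had a second probe, and these disagreed with the first in replicate 2: the second SNORD3B-1 probe was at 37.6% of its partner, and the second RNU4ATAC probe, which lies beyond the gene, read 439 on the mock and 7.73, not well above background, on the NUDT16 array. A second RNU11 probe was not detected on any of the 6 arrays. In replicates 1 and 3 the brightest probes of the m3G-capped RNAs ran from 80.1% to 165%, which encloses the range of the 5 RNAs. The second SNORD3B-1 probe, detected on all 6 arrays, was lower in replicate 1, at 59.9% of its partner, and at 113% in replicate 3. The second RNU4ATAC probe was at 55.5% and 101% in these pairs.

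U6atac and U4atac pair in the same particle, one without and one with the precipitated cap, and their log2 difference within an array does not depend on a common scaling factor. RNU6ATAC minus RNU4ATAC was -10.01, -10.33 and -10.83 on mock arrays and -10.08, -13.49 and -10.59 on NUDT16 arrays. The value of -13.49 comes from an RNU6ATAC signal that was not well above background, and the differences that include it share this limit. The NUDT16 array of replicate 2 stood apart from the other 5, and without it the groups interleaved. The difference of the group means was -0.99, with a two-sided p of 0.6 by exact permutation for 3 arrays against 3, where the smallest possible p is 0.1. The difference turned to 0.097 with quantile normalisation, 0.0092 in the authors' deposited table, 0.084 with the mean over the probes of a gene and 0.058 without NUDT16 replicate 2. The mean over probes takes in the second RNU4ATAC probe, which lies beyond the gene. By pair the difference between the brightest probes was -0.07, -3.16 and 0.24. The same within-array measure was lower on NUDT16 than on mock replicate 2 for each of the other RNAs, with differences of -1.43 for RN7SL1, -1.4987 for RMRP, -2.11 for RN7SK and -2.47 for RPPH1. All share RNU4ATAC as reference, and 98.8% of the 6582 probes had a smaller ratio than RNU4ATAC in that pair. In replicates 1 and 3 together it averaged -0.05 for RN7SL1, 0.31 for RN7SK, 0.24 for RMRP, 0.003 for RPPH1 and 0.09 for RNU6ATAC. These further values were not tested.

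Of 20 other polymerase III transcripts listed, 5 were on the array. SNAR-A3, a small noncoding RNA that binds NF90, was the one that passed the filter. Its intensities were 4089, 2635 and 3583 on mock and 5224, 804 and 4491 on NUDT16 arrays, so the order of the arrays within pairs was that of RN7SK. Its scaled difference was 0.65 (limma adjusted p 0.999). The vault RNA VTRNA1-2 was detected on 0 of 6 arrays, VTRNA1-1 and VTRNA2-1 on 2 and VTRNA1-3 on 3. Detection in this eluate therefore differed among polymerase III transcripts, each read by a probe of its own.

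The messenger RNAs of the proteins that bind or make these RNAs are capped with m7G, and were followed as lists of names. No member of any list passed the limma threshold in either direction. All 8 signal recognition particle genes were tested, and 1 of 8 had a difference above 0, beside 45.8% of all tested genes. The median was -0.70 on the scaled log2 axis, beside -0.06 over all tested genes. The 2 with the smallest p below 0 were as follows: SRP72, a protein bound directly to 7SL, was at -1.23, from -0.84, -2.65 and -0.21 in the 3 pairs, and SRPRB, a receptor subunit, was at -0.85, from -0.91, -1.22 and -0.42. SRPR, the other receptor subunit, was at 0.49. These values are of the brightest probes. A second SRP72 probe, not well above background on NUDT16 replicate 2, was at -0.17, from -0.24, -0.60 and 0.32 in the 3 pairs. With the replicate block 4 of the 8 had an unadjusted p under 0.05, beside 1198 of all 13696 tested genes, and 0 passed the adjusted threshold. RN7SL1 itself was at 0.42.

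The 7SK and P-TEFb list had 7 tested genes, 3 above 0, with a median of -0.16. CDK9, the P-TEFb kinase, was at 0.56 and MEPCE, the methylase that caps 7SK, at 0.54, each higher in all 3 pairs. LARP7, which protects the 3′ end of 7SK, was at -1.17 and HEXIM1, the P-TEFb inhibitor, at -0.45. Their brightest probes were lower in all 3 pairs, with LARP7 at -0.09 in replicate 1. HEXIM1 was not well above background on NUDT16 replicate 2. A second LARP7 probe was at -0.95, from 0.06, -1.81 and -1.09 in the 3 pairs. None of the 4 genes passed the test (limma adjusted p 0.999), and of all tested probes 15.9% were higher and 27.5% lower in all 3 pairs.

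The RNase P and RNase MRP proteins had 10 tested genes, 4 above 0 and a median of -0.21. Their extremes by p were RPP14 at -1.47 and RPP40 at -1.11 below 0, and RPP25 at 0.60 and C9orf23 (now RPP25L) at 0.42 above it. The proteins of the minor spliceosome and of U6-type particles had 24 tested genes, 10 above 0 and a median of -0.22. ZRSR2, which recognises the 3′ splice site of minor introns, was at -1.27 and SNRNP48 at -1.21, while LSM2 and NHP2L1 (now SNU13) were at 0.48 and 0.51. RNA polymerase III and its factors had 32 tested genes, 12 above 0 and a median of -0.46. GTF3C4, a subunit of TFIIIC, was at -1.33 and SSB, the La protein that binds the 3′ end of new polymerase III transcripts, at -1.34. GTF3C5 was at 0.63 and BRF2, which serves promoters of the RPPH1 type, at 0.59. On NUDT16 replicate 2, RPP14, RPP40, RPP25, ZRSR2, SNRNP48, GTF3C4 and BRF2 were not well above background, and their differences include that value. These are brightest probes, and further tested probes of a gene often differed. They gave 0.05 for GTF3C4, -0.19 for SNRNP48 and 0.32 for GTF3C5, each also not well above background on that array. NHP2L1 had a further probe at 0.11, SSB at -0.63 and -0.70, and LSM2 at 0.51. The limma adjusted p of every gene named from these lists was 0.999, and with the block 0 genes passed the threshold.

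**Figure D4:**
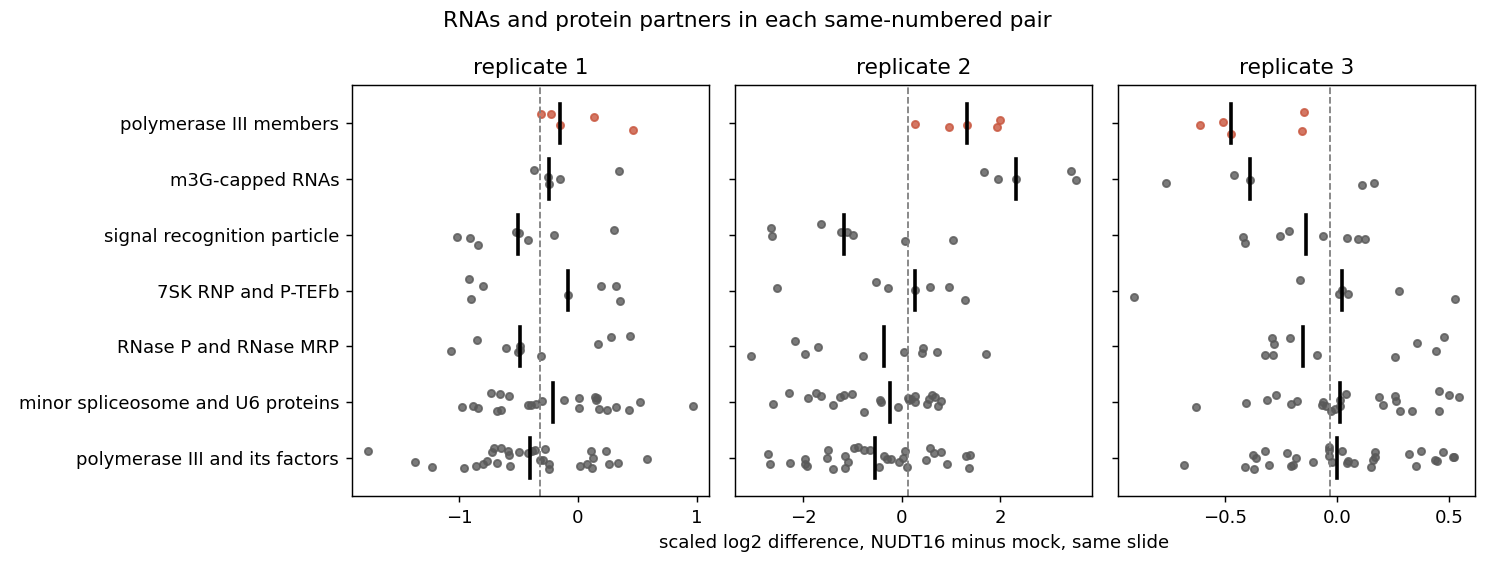
Scaled log2 difference, NUDT16 minus mock (horizontal axis), in each same-numbered pair for the 5 polymerase III RNAs (red) and the tested genes of the other lists (grey). Black bars are list medians and the dashed line the median of all tested genes, and the horizontal scales differ between panels. In replicate 2 the polymerase III RNAs have a median of 1.32, the m3G-capped RNAs 2.33 and the signal recognition particle genes -1.17.

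Over the 6 arrays the scaled log2 signals of the 5 RNAs moved together, with Pearson's r from 0.80 (RN7SL1 and RNU6ATAC) to 0.98 (RPPH1 and RNU6ATAC). Without NUDT16 replicate 2 the range was 0.33 (RN7SL1 and RMRP) to 0.98, so RN7SL1 was the least like the others. These are descriptions over arrays that share slides and scaling factors. The named genes whose patterns were most like each RNA over the 6 arrays had r between 0.990 and 0.999. For RN7SL1 they were C15orf59, RQCD1 and LOC100287314, for RN7SK the histone genes HIST1H2AC and HIST2H4B with LOC100288069, and for RMRP LOC100130238, LGALS3 and FBRSL1. For RPPH1 they were CYP2B6, SNORD10 and HIST1H4K, and for RNU6ATAC RPL9, CYB5A and CYP2B6. All were picked for the highest r among the tested probes with a RefSeq transcript, so a high r was built into the choice. Their r without NUDT16 replicate 2 was not computed.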

How the data were processed

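The 6 arrays were assigned to groups and replicates from their titles. They are, per the file headers, of Agilent design 039494 with probe positions on hg19, read with Feature Extraction 10.7.3.1. Per the same headers, detrending and surrogate values for dim spots were switched on in making the deposited processed intensity, and no step between arrays is recorded there. The submitters' processing notes also name limma, with no role. The authors' deposited value table holds log2 values, made in a way not given in the sources used here, and served as an alternative.

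Control spots and outlier spots were left out. The spots of a probe were averaged on the log2 scale (902 probes had 10 spots, with a median SD of 0.05 to 0.10 on an array, and each probe of the 5 RNAs had 1 spot), and 13 probes were removed because an array gave them no usable value. Detection of a probe required the well-above-background flag on over 50% of its spots. Each array was shifted by the 75th percentile of the 6582 probes detected on all arrays, because under 50% of spots were detected on 4 arrays. Probes detected on every array of at least 1 group were fitted with limma 3.58.1 in R 4.3.3, without a block, and adjusted by Benjamini-Hochberg at 0.05. The brightest probe stood for a gene. The 95% intervals come from limma's moderated standard errors. The procedure was tested on simulated data with independent noise. These data had no outlying array, no pairing of arrays and no background-level values, so the simulation does not cover those features of the series. The number of arrays limits the precision.

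Deviations from the group means of same-numbered arrays correlated at 0.84, 0.39 and 0.77 for replicates 1, 2 and 3, so the numbers pair the arrays. Slide and scan follow the number and cannot be told apart from it.

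Genes named are the 5 RNAs, all m3G-capped and other polymerase III RNAs listed, for each protein list the 2 higher and 2 lower genes with the lowest p, and the 3 genes with a RefSeq transcript most correlated with each RNA. SRPR was the single signal recognition particle gene above 0. PARP2 was named after the values were seen. The RNAs and lists were chosen with earlier results of these data known. Sequences are those of the array files and, for the upstream window, of RefSeq (GRCh38.p14). Its promoter table matched 0 of the 5 RNAs. The RN7SL1 probe sequence is not reported here.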

Additional observations from a re-analysis of the deposited data

How the results depend on the processing

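No alternative brought any of the 5 RNAs past the threshold: limma's adjusted p lay between 0.519 and 1 over all alternatives. Their signs did change. Without scaling the log2 differences were -0.58 for RN7SL1, -0.56 for RN7SK, -0.40 for RMRP and -0.88 for RPPH1, and with spike-in scaling -0.24, -0.23, -0.071 and -0.55. Both settings shift all probes alike, and the 4 RNAs were 0.22 to 0.70 above the median of the tested probes (-1.10 and -0.77). In replicates 1 and 3 with the replicate block they were -0.37, -0.0074, -0.073 and -0.31, beside a median of -0.22 over all tested probes. The same fit without scaling, added after the data were seen, gave -0.064 for RN7SL1, 0.30 for RN7SK and 0.23 for RMRP. It gave -0.0085 for RPPH1 and 0.076 for RNU6ATAC, beside a median of 0.080 over all tested probes. The authors' table gave -0.15 for RN7SL1. RNU6ATAC was at 0.028 with the percentile over all probes, 0.096 with quantile normalisation, 0.36 with normexp and 0.12 in the authors' table. Leaving out one array gave -0.52 to 1.20 for RN7SL1, -0.49 to 1.002 for RN7SK, -0.44 to 1.27 for RMRP, -0.80 to 0.60 for RPPH1 and -0.54 to 0.26 for RNU6ATAC. The lowest value of each came without NUDT16 replicate 2. Demanding detection on all 6 arrays removes RNU6ATAC, which was not well above background on NUDT16 replicate 2.

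The difference of RNU6ATAC minus RNU4ATAC was 0.097 with quantile normalisation, 0.0092 in the authors' table and 0.088 in replicates 1 and 3. It was 0.084 with the mean of the probes, which takes in the RNU4ATAC probe beyond the gene. Over the fits that each omit an array it lay between -1.65 and 0.058, the highest without NUDT16 replicate 2. With the replicate block it stayed at -0.99 (exact paired permutation p = 0.75, smallest possible 0.25).

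The count of 1 called probe was 0 without scaling, with spike-in scaling, with normexp, without any filter, under the 6-array filter and in the authors' table, where the limma fits had 1, 1, 1, 160, 2 and 10 probes with an unadjusted p under 0.05. Omitting single arrays gave 0 to 1, with 0 without mock replicate 2 (1 at an unadjusted p under 0.05). It stayed at 1 with the replicate block, which changed no call. In replicates 1 and 3 with the block it was 613, of which 601 were lower, and 2 when these arrays were not scaled. None was a probe of the 5 RNAs. Under the 6-array filter the called probe, that for NUDT16P1, was left out beforehand, since it was well above background on 0 mock arrays. The cause of the other changes was not tested.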
